A study of Homo sapiens and Mus musculus with 8 samples.

Results

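The Krüppel-like factors (KLF) described here are 10 genes, KLF2, KLF3, KLF4, KLF5, KLF6, KLF7, KLF9, KLF10, KLF11 and KLF13, taken by symbol from a raw count table of 60483 genes. All 10 were in the table and all 10 passed the filter on low counts, so no member is missing from what follows. RNA was sequenced from 2 human colorectal cancer lines, KM12 and LS174T, each as cells in culture and as a tumor grown from those cells, labelled CDX and called a xenograft here. The KM12 libraries came from the parental line, of genotype GNASR201H, and from a line labelled GNAS Knock-out. The LS174T libraries were all labelled GNASR201H and came without doxycycline, Dox (-), or with it, Dox (+). That makes 8 groups of 1 library each, so every test below takes its spread from how far pairs of libraries disagree, and the GNAS, environment and line comparisons reuse the same 8 libraries. The labels do not say what Dox induces, whether a line is 1 clone or a pool, which mouse strain carried the tumors, or how many tumors went into a library, and no LS174T library lacks the R201H label. GNAS encodes the stimulatory G protein alpha subunit, which raises cAMP, and R201H is an activating mutation. The comparison of KM12 parental with knockout and of LS174T Dox (+) with Dox (-) asks which transcripts follow that activity.

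KLF proteins bind GC-rich and CACCC-type DNA through zinc fingers near their C terminus, and differ in the N-terminal part that recruits partners. KLF2, KLF4, KLF5, KLF6 and KLF7 act mainly as activators, KLF3 recruits the CtBP corepressors, and KLF9, KLF10, KLF11 and KLF13 bind the SIN3A corepressor. In the intestine, KLF5 is found in dividing crypt cells and KLF4 in differentiating cells, including goblet cells, where it restrains growth.

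The sequences just upstream of KLF4, KLF6, KLF13 and KLF2 are printed because these members carry the GNAS and xenograft results below. RefSeq windows (GRCh38.p14) running from 250 bases before to 50 bases after a start were read for 8 of the 10 members, 13 windows in all, and those of KLF3 and KLF10 were not used here. The 250 bases before the start are shown, 5′ to 3′ on the gene's strand. Capitals mark the GC box GGGCGG or its complement CCGCCC, the kind of element that KLF and SP proteins bind, and the core TGACG or its complement CGTCA of the cAMP response element. KLF4 is at chr9:107489770-107490019 on the minus strand, inside the GENCODE v29 gene model, which starts further upstream. KLF6 is at chr10:3785210-3785459 on the minus strand, KLF13 at chr15:31326585-31326834 and KLF2 at chr19:16324576-16324825, both on the plus strand.
KLF4: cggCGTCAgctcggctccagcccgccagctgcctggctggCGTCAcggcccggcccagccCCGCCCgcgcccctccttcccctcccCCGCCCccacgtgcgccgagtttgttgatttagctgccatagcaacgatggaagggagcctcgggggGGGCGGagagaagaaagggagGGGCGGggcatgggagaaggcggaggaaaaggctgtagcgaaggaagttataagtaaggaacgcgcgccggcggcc
KLF6: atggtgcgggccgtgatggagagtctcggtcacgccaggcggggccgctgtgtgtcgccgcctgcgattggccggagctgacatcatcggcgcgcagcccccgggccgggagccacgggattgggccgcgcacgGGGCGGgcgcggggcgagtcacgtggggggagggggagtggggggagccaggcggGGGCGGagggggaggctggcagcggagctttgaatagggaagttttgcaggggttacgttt
KLF13: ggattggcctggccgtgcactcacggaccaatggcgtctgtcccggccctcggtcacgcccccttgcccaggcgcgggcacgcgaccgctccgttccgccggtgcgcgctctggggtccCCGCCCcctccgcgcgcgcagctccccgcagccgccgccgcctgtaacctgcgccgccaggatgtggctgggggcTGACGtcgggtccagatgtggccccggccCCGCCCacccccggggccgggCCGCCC
KLF2: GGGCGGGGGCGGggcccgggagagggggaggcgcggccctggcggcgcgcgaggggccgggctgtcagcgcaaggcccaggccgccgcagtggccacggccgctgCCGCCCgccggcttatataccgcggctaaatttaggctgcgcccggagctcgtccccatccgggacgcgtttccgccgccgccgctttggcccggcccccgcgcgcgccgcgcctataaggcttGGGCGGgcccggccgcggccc
Over the whole 300-base windows, KLF4 had 2 TGACG cores, at -247 and -210 counted from the start base as 0, and 4 GC boxes. KLF6 had 2 GC boxes and no TGACG core, KLF13 had 1 core at -56 and 3 GC boxes, and KLF2 had 6 GC boxes, 2 of which overlapped each other, and no core. Among all 35116 windows of this length, 24.6% held at least 1 TGACG core and 45% at least 1 GC box on either strand. The other motifs drawn in the plot were searched on both strands too. The CACCC element, spelled by its name, was in 59.9% of windows, the CCAAT element in 34.6%, and the E-box CACGTG in 7.26%. The complete palindrome TGACGTCA, present in 1.85% of all windows, was found in 1 KLF11 window at -176 and in no other window read. These are matches of letters in short windows and carry no measurement of binding.

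**Figure D1:**
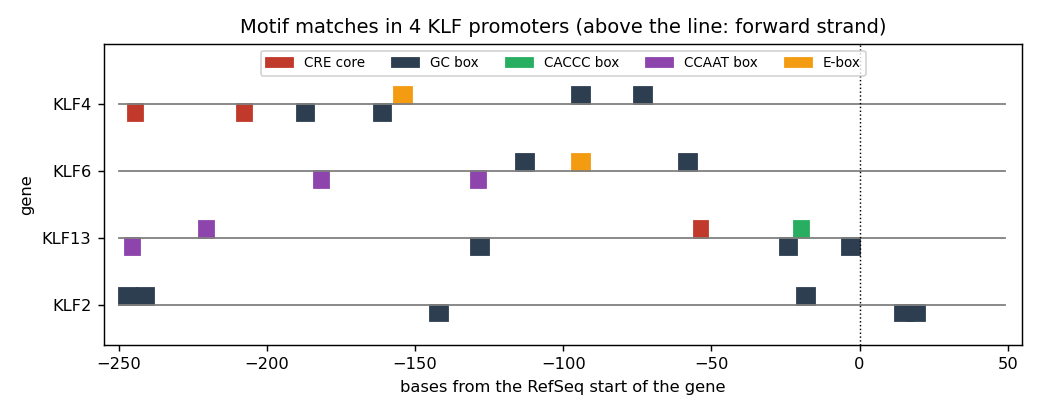
Positions of short motifs in the RefSeq windows of KLF4, KLF6, KLF13 and KLF2; the x axis gives bases from the start (0), boxes above a line are matches on the gene's strand and boxes below it on the other strand. KLF4 has 2 CRE cores (TGACG) and KLF13 has 1, while KLF2 has 6 GC boxes and neither KLF2 nor KLF6 has a CRE core.

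Depth ran from 15924846 to 37735085 counts a library and was lower in the 4 xenografts. GNAS itself, the check of the labels, was at 1119 CPM (counts scaled to library size with TMM factors) in KM12 parental and 298 in knockout culture, and at 1390 and 903 in the KM12 xenografts. In LS174T it was at 1746 CPM with Dox and 691 without in culture, and at 691 and 586 in the xenografts. The parental or Dox (+) library was thus the higher of each pair, by 3.75 and 2.52 times in KM12 and LS174T culture but only 1.54 and 1.18 times in their xenografts. The knockout xenograft stood above both Dox (-) libraries, and the Dox (+) xenograft was level with Dox (-) culture. The labels do not say which part of GNAS was deleted, and counts per gene do not tell the mutant allele from the other. All 8 epithelial markers were at 1 CPM or more in every library. Their sum was 8059 and 7960 CPM in KM12 parental and knockout culture and 6269 and 7144 in the xenografts, and 23462 and 19081 in LS174T Dox (-) and Dox (+) culture and 6247 and 4883 in the xenografts. The lower sum in LS174T xenografts came mostly from KRT8 and KRT18. In Dox (-) KRT8 was at 14687 CPM in culture and 2450 in the xenograft, and KRT18 at 6415 and 1304. CDX1 (246 and 178) and CDH17 (534 and 416) were also lower in that xenograft. EPCAM (702 and 763), CDH1 (384 and 496), CDX2 (115 and 250) and VIL1 (380 and 390) were not. The part of this lower sum in the LS174T xenograft results below was not tested. Fibroblast markers summed to 264 CPM in the KM12 parental xenograft, 220 of it from COL3A1, and to between 3.49 and 12.8 CPM elsewhere. Endothelial markers summed to 0.381 to 2.06 CPM, with KDR at 0 in all 8 libraries. The leukocyte list summed to between 9.17 and 769 CPM, at most 766 of it from LYZ, while PTPRC was at or near 0 throughout. The table holds no mouse gene identifiers, and how mouse reads in xenografts were treated is not given in the sources used here. In bulk RNA, fewer cells of a kind and less RNA per cell cannot be told apart.

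KLF5 was the most abundant KLF transcript of the 10 in every library. Levels of different genes are compared per exon length, as RPKM (CPM per kilobase of GENCODE v29 exon). KLF5 (chr13:73054976-73077542) stood at 217 and 200 RPKM in KM12 parental and knockout culture, 132 and 114 in the KM12 xenografts, 111 and 115 in LS174T Dox (-) and Dox (+) culture, and 153 and 104 in the LS174T xenografts. It made up 41.3% to 61.9% of the RPKM summed over the 10 genes, and its range did not overlap that of KLF4, the next in order. KLF4 (chr9:107484852-107490482) averaged 38 RPKM over the 8 libraries (lowest 17.4, median 36.2, highest 61.4) and KLF6 (chr10:3775996-3785281) averaged 29.8 (12.7, 22.8 and 69). KLF4 was second in the 4 KM12 libraries and KLF6 second in the 4 LS174T libraries.

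Below them came KLF3 (chr4:38664196-38701042) at a mean of 21.9 RPKM, KLF13 (chr15:31326855-31435665) at 19.6 and KLF10 at 13.7. KLF2 (chr19:16324817-16327874) followed at 8.24, KLF11 (chr2:10042849-10054836) at 6.19, KLF9 (chr9:70384597-70414624) at 3.37 and KLF7 (chr2:207074137-207167267) at 1.71. Apart from KLF5 and KLF4, every pair of neighbours in this order had overlapping ranges, so their order is not separated by the spread over libraries. The members also differed in how variable they were. KLF3 was the steadiest, its highest library 1.78 times its lowest, and KLF5 spanned 2.07 times. KLF7, KLF9 and KLF2 spanned 40.3, 29.5 and 21.7 times. KLF3 shares 266 exonic bases with the antisense transcript KLF3-AS1, which reached 15.9 CPM, and since strand marking is not stated, reads of that stretch cannot be assigned to either gene. The same limit holds for KLF11, which shares 416 exonic bases with the antisense transcript AC104794.4, itself at 4 counts or fewer in each library.

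**Figure D2:**
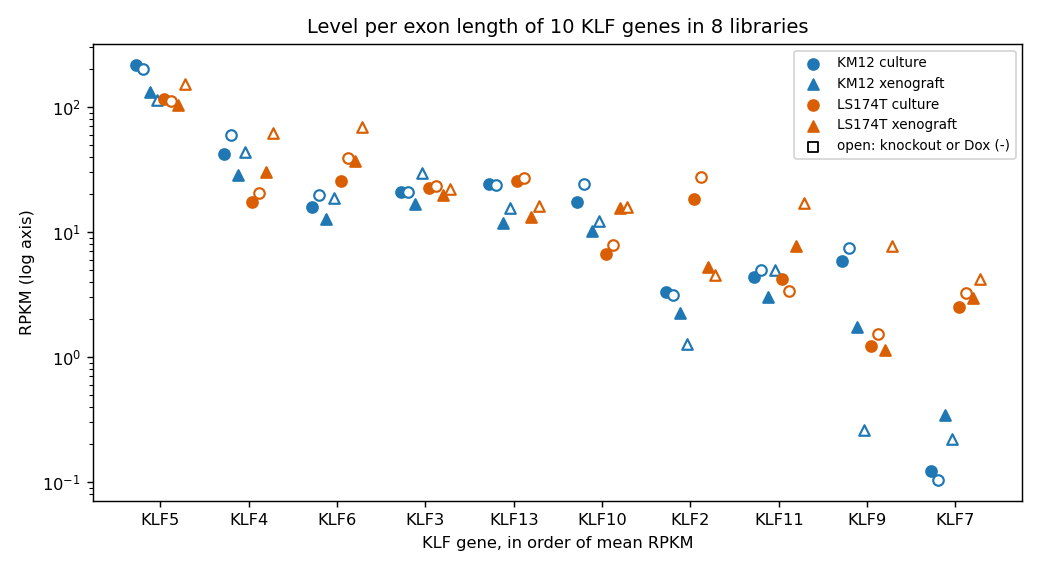
RPKM (log axis) of the 10 KLF genes in each of the 8 libraries, 1 point a library; color gives the line, circles culture and triangles xenograft, open symbols knockout or Dox (-). KLF5 lies above every other gene, between 104 and 217 RPKM, and KLF7 shows LS174T far above KM12.

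KLF6 and KLF4 were lower in the parental or Dox (+) library of all 4 GNAS pairs. KLF6, a broadly expressed factor with described growth-suppressing roles, stood at 97.9 CPM in KM12 parental against 122 in knockout culture, and at 78.2 against 116 in the KM12 xenografts. In LS174T it was 158 CPM with Dox against 241 without in culture, and 225 against 424 in xenografts. The ratios were 0.80 (95% counting interval 0.762 to 0.839), 0.676 (0.632 to 0.723), 0.655 (0.632 to 0.679) and 0.531 (0.513 to 0.55) in the order KM12 culture, KM12 xenograft, LS174T culture and LS174T xenograft. Within each pair the libraries were apart by more than counting error, but across pairs the 2 groups of 4 overlapped because the lines start from different levels.

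KLF4, the differentiation-linked factor, was at 154 CPM in KM12 parental against 218 in knockout culture and at 104 against 161 in the KM12 xenografts. In LS174T it was 63.7 with Dox against 75.3 without in culture, and 111 against 225 in xenografts. Its ratios in the same order were 0.704 (0.678 to 0.731), 0.649 (0.612 to 0.687), 0.846 (0.797 to 0.898) and 0.495 (0.471 to 0.519). KLF4 and KLF6 were the only members whose counting interval lay below 1 in all 4 pairs. The share of all genes with such intervals was not counted. These intervals cover counting error only and not the spread between cultures or tumors, for which there are no replicates.

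Across the 4 pairs, edgeR's quasi-likelihood test with the pair as a block gave a log2 difference of -0.60 ± 0.11 (SE, 4 pairs) for KLF6 and -0.60 ± 0.13 for KLF4. Their unadjusted p-values were 0.000733 and 0.00205, ranking 7 and 40 of 16070 genes, and the adjusted p was 0.776 for both. No gene of the 16070 passed an adjusted p of 0.05 (0% called), so none of the 10 members did, while 977 genes had an unadjusted p below 0.05. DESeq2 called 53 genes, with KLF6 at an adjusted p of 0.00422 and KLF4 at 0.028, and limma-voom called 0, with 0.458 and 0.461. Without the filter on low counts the test called 281 genes, with KLF6 at 4.71e-05 and KLF4 at 9.08e-05. From the culture pairs alone, with 1 residual degree of freedom, it called 194, with KLF6 at 0.00332, KLF4 at 0.0134 and KLF10 at 0.0339. The edgeR fit of all 8 libraries with a GNAS effect per environment called 0 genes in culture, so not KLF6, KLF4 or KLF10. Over all 12 alternatives the log2 difference stayed between -0.75 and -0.48 for KLF6 and between -0.83 and -0.38 for KLF4, with adjusted p-values up to 1.

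KLF10, a TGF-beta-inducible early gene, also had a ratio below 1 in the 4 pairs, 0.708 (0.67 to 0.749), 0.824 (0.747 to 0.908), 0.844 (0.769 to 0.927) and 0.97 (0.9 to 1.05), the last within counting error of no change. Its log2 difference was -0.27 ± 0.10 (unadjusted p = 0.0333, adjusted p = 0.776). KLF3 completed the set of 4 members below 1 in every pair, of which its KM12 culture ratio was 0.999 (0.956 to 1.04) and its KM12 xenograft ratio 0.563 (0.532 to 0.595). Of all tested genes 8.01% were below 1 in the 4 pairs. With total counts in place of TMM factors 2 of the 10 members, KLF4 and KLF6, kept that pattern, against 6.31% of all genes. Scaled by TMM, 9 of the 10 members had a log2 difference below 0, with a median of -0.26 beside 0.01 for all genes, of which 52.6% were above 0. The members' unadjusted p was below 0.05 for 3 of 10, against 6.08% of all genes. Because the members were chosen with earlier results of these data known, these counts are a description. Of the 4 other KLF genes tested, 2 were above 0 and 2 below, with a median of 0.03, and 0 had an unadjusted p below 0.05.

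The other members did not move one way. KLF5, the crypt factor, was at a ratio of 1.08 (1.06 to 1.1) in KM12 culture, 1.16 (1.12 to 1.19) in KM12 xenografts, 1.03 (1.01 to 1.06) in LS174T culture and 0.682 (0.664 to 0.701) in LS174T xenografts, and its log2 difference was -0.04 ± 0.13. KLF9, a factor induced by glucocorticoid and thyroid hormone, had the widest disagreement. It stood at 30.1 CPM in KM12 parental against 38.8 in knockout culture, 9.06 against 1.36 in the KM12 xenografts, 6.33 with Dox against 7.86 without in LS174T culture, and 5.87 against 40.1 in the LS174T xenografts. The xenograft ratios were thus 6.66 (4.44 to 10.3) in KM12 and 0.146 (0.12 to 0.177) in LS174T, and the log2 difference over pairs was -0.34 ± 0.93. The KM12 parental xenograft also had the high fibroblast marker sum (264 CPM, 220 of it from COL3A1, against 12.8 in the knockout xenograft). The part of that sum in the KLF9 difference was not tested. KLF11, the close relative of KLF10, ran from 0.453 (0.416 to 0.494) in LS174T xenografts to 1.24 (1.1 to 1.4) in LS174T culture.

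For KLF2, KLF7 and KLF13 the log2 differences were 0.08 ± 0.22, -0.10 ± 0.22 and -0.18 ± 0.10, with adjusted p-values of 0.776 or more. Whether the GNAS effect differed between lines or between culture and xenograft was tested as an interaction in edgeR, with 2 residual degrees of freedom. None of the 10 members passed either test, against 0.00622% and 0% of all genes. The members that came nearest were KLF7 for the lines (difference -0.91 ± 0.33, adjusted p = 0.965) and KLF11 for the environments (-0.997 ± 0.27, adjusted p = 0.891). At an unadjusted p below 0.05 the tests held 648 genes (4.03%) and 809 genes (5.03%), and 1 of the 10 members each.

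**Figure D3:**
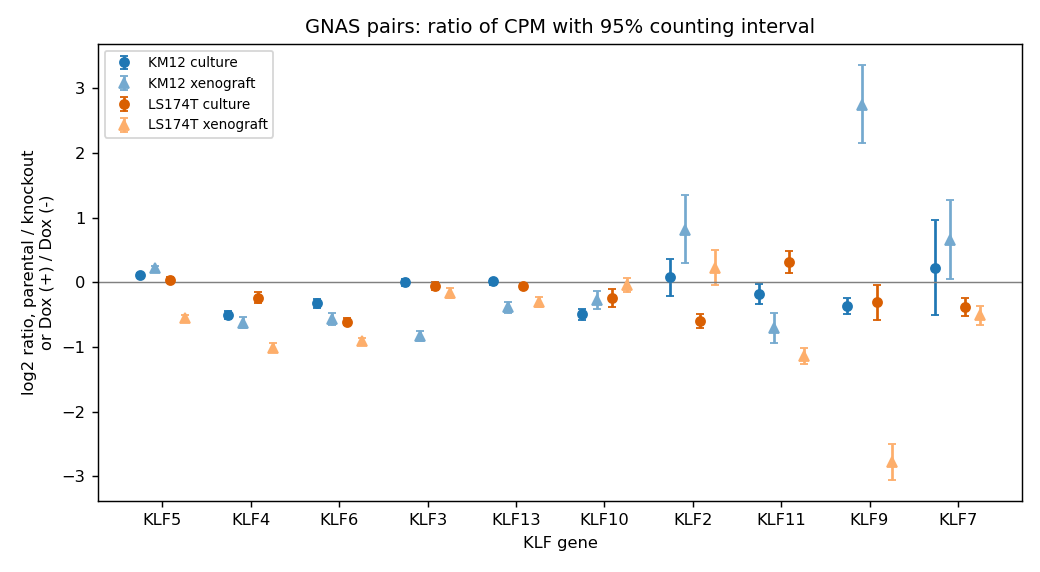
Log2 ratio of CPM, parental over knockout in KM12 and Dox (+) over Dox (-) in LS174T, for each of the 10 KLF genes in the 4 pairs, with 95% counting intervals. KLF4 and KLF6 lie below 0 in all 4 pairs, while the xenograft pairs of KLF9 point in opposite directions.

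Xenografts had less KLF13 and less KLF2 than cultures in both lines. KLF13, a SIN3A-binding factor, was at 226 CPM in KM12 parental, 225 in KM12 knockout, 252 in LS174T Dox (-) and 241 in LS174T Dox (+) culture, and at 111, 145, 152 and 123 CPM in the matching xenografts. The groups of 4 did not overlap, a property that 13.8% of all tested genes shared in this direction. Its log2 difference, xenograft minus culture, was -0.84 ± 0.13 (4 pairs, edgeR adjusted p = 0.0139). The fall was -0.83 ± 0.16 in KM12 and -0.85 ± 0.16 in LS174T, and the difference between lines was -0.02 ± 0.22.

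KLF2, best known for its response to blood flow in endothelium and for quiescence of T cells, fell from 55.9 CPM to 9.11 in LS174T Dox (-), from 37.1 to 10.7 in Dox (+), from 6.74 to 4.53 in KM12 parental and from 6.39 to 2.57 in KM12 knockout. All 4 pairs were lower in the xenograft, as for 25.1% of all genes, while the groups overlapped because KM12 culture was below the LS174T xenografts. The log2 difference was -1.59 ± 0.36 (adjusted p = 0.0282). It was -0.93 ± 0.30 in KM12 (adjusted p = 0.0463) and -2.21 ± 0.28 in LS174T (adjusted p = 8.28e-04), and the difference between lines did not pass (-1.28 ± 0.40, adjusted p = 0.0724). Endothelial markers stayed at or below 2.06 CPM in sum in every library, and the part of endothelium in the KLF2 levels was not tested. The table holds no mouse gene identifiers, and vessels of the host were not measured.

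KLF13 and KLF2 were the 2 of 10 members called for the environment, beside 26.1% of all genes called, 12.6% higher and 13.5% lower. KLF13 kept its call without the KM12 parental pair (adjusted p = 0.0386) or the knockout pair (0.0381), and lost it without either LS174T pair (0.0524 without Dox (-), 0.0714 without Dox (+)). KLF2 lost its call without the KM12 knockout pair (0.0615), without LS174T Dox (-) (0.0848), without Dox (+) (0.114) and from the KM12 pairs alone (0.127). KLF7 was higher in the xenograft of all 4 pairs, as were 23.9% of all genes, by 2.83 (1.81 to 4.49), 2.11 (1.31 to 3.43), 1.29 (1.18 to 1.41) and 1.18 (1.05 to 1.32) times in KM12 parental, KM12 knockout, LS174T Dox (-) and LS174T Dox (+), with a log2 difference of 0.75 ± 0.27 that did not pass (adjusted p = 0.0847). Scaling by total counts, in place of TMM factors that ran higher in xenografts, moved the median log2 difference of all genes from 0.019 to 0.278 and the calls from 2023 higher and 2166 lower to 3347 higher and 985 lower. Under it KLF13 and KLF2 stayed lower (log2 differences -0.58 and -1.33, adjusted p = 0.0286 and 0.0428), KLF7 passed (1.01, adjusted p = 0.0425), and KLF3 turned from -0.02 to 0.24 without passing.

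**Figure D4:**
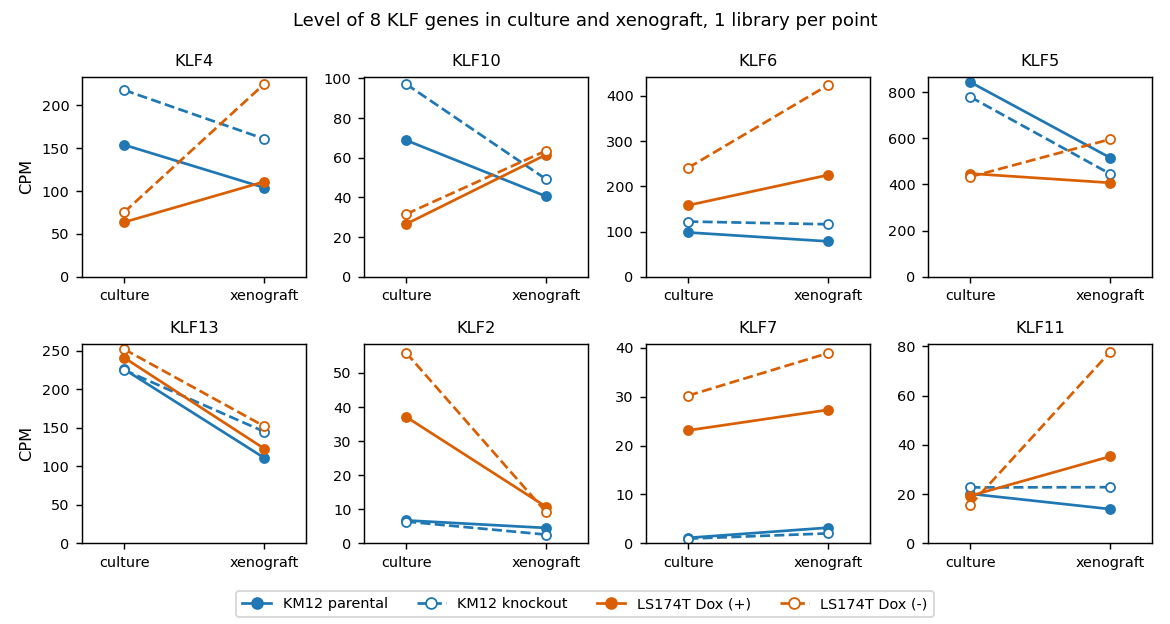
CPM of 8 KLF genes in culture and xenograft, 1 library per point, lines joining the libraries of the same line and GNAS state. KLF13 and KLF2 are lower in the xenograft of all 4 pairs, and KLF4, KLF10 and KLF6 are lower in the KM12 xenografts and higher in the LS174T xenografts (KLF6 in the KM12 knockout pair turns to 1.15 times with total counts).

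Relative to culture, KLF10, KLF4 and KLF6 were lower in both KM12 xenografts and higher in both LS174T xenografts, except that with total counts in place of TMM the KLF6 ratio in the KM12 knockout pair was 1.15. KLF10 was at 68.8 and 97.1 CPM in KM12 parental and knockout culture and at 40.5 and 49.1 in their xenografts. In LS174T it was at 31.6 and 26.6 CPM in Dox (-) and Dox (+) culture and at 63.6 and 61.6 in their xenografts. Both KM12 xenografts were thus below both KM12 cultures, and both LS174T xenografts above both LS174T cultures. The log2 difference was -0.87 ± 0.15 in KM12 (2 pairs, edgeR adjusted p = 0.00544) and 1.11 ± 0.15 in LS174T (adjusted p = 0.00101), and the effects differed by 1.98 ± 0.21 (adjusted p = 0.00171).

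KLF4 was at 0.677 (0.641 to 0.716) and 0.736 (0.706 to 0.766) of its culture level in the parental and knockout KM12 xenografts, a log2 difference of -0.50 ± 0.20 that did not pass (adjusted p = 0.0867), and stood at 2.98 (2.84 to 3.13) and 1.74 (1.64 to 1.85) times its culture level in the Dox (-) and Dox (+) LS174T xenografts (1.19 ± 0.20, adjusted p = 0.00253). The effects differed by 1.69 ± 0.28 (adjusted p = 0.00849). KLF6 was at 0.799 (0.749 to 0.853) and 0.945 (0.898 to 0.994) of culture in KM12, with -0.20 ± 0.15 and adjusted p = 0.342, and at 1.76 (1.71 to 1.81) and 1.43 (1.37 to 1.49) times culture in LS174T, with 0.66 ± 0.15 and adjusted p = 0.00884. The difference between lines was 0.87 ± 0.22 (adjusted p = 0.0348). KLF5 was at 0.61 (0.596 to 0.625) and 0.571 (0.557 to 0.584) of culture in KM12 (-0.76 ± 0.17, adjusted p = 0.0138) and at 1.38 (1.35 to 1.41) and 0.909 (0.885 to 0.934) in LS174T (0.16 ± 0.17, adjusted p = 0.464), a difference of 0.92 ± 0.24 (adjusted p = 0.0406). With total counts the KLF5 ratio in the LS174T Dox (+) pair turned to 1.08.

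These 4 were the members of the 10 whose environment effect differed between lines, beside 13.7% of all genes, 7.74% with the higher effect in LS174T and 5.94% with the lower. Within lines, KLF2, KLF5, KLF10 and KLF13 were lower and KLF7 was higher (1.29 ± 0.26, adjusted p = 0.00931) in KM12 xenografts, 5 of 10 beside 29.8% of all genes (14.3% higher, 15.5% lower). KLF4, KLF6, KLF10 and KLF11 were higher and KLF2 and KLF13 lower in LS174T xenografts, 6 of 10 beside 45.9% (23.4% higher, 22.5% lower). With the LS174T Dox (-) or Dox (+) pair left out, none of the 4 differences passed (adjusted p between 0.0554 and 0.251), and that of KLF6 also failed without the KM12 parental pair (0.74, adjusted p = 0.0656). Without the Dox (-) pair 33 genes passed and without the Dox (+) pair 17, in place of 2198. KLF4, KLF5 and KLF10 passed without the KM12 parental pair, the one with the high fibroblast sum, at adjusted p-values of 0.001, 0.0312 and 8.48e-06.

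KLF11 reached 77.8 CPM in the LS174T Dox (-) xenograft and 35.3 in the Dox (+) xenograft, against 15.6 and 19.3 in the matching cultures and 13.9 to 22.8 in all 4 KM12 libraries. Its rise in LS174T passed (1.60 ± 0.37, adjusted p = 0.0172), while the difference from KM12 (1.86 ± 0.52, adjusted p = 0.0704) did not. KLF9 was at 0.301 (0.252 to 0.357) and 0.035 (0.0232 to 0.0509) of its culture level in the parental and knockout KM12 xenografts. In LS174T it was at 5.1 (4.44 to 5.88) times culture without Dox and 0.927 (0.732 to 1.17) with it. The LS174T pairs disagreed by more than counting error, and neither line's effect passed (-3.09 ± 1.26, adjusted p = 0.183, and 1.18 ± 1.19, adjusted p = 0.489). The LS174T Dox (-) xenograft held the highest CPM of KLF4, KLF6, KLF7, KLF9 and KLF11 among the 8 libraries. How many of all genes were highest in that library was not counted, so this describes these members only and cannot be read as particular to them.

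**Figure D5:**
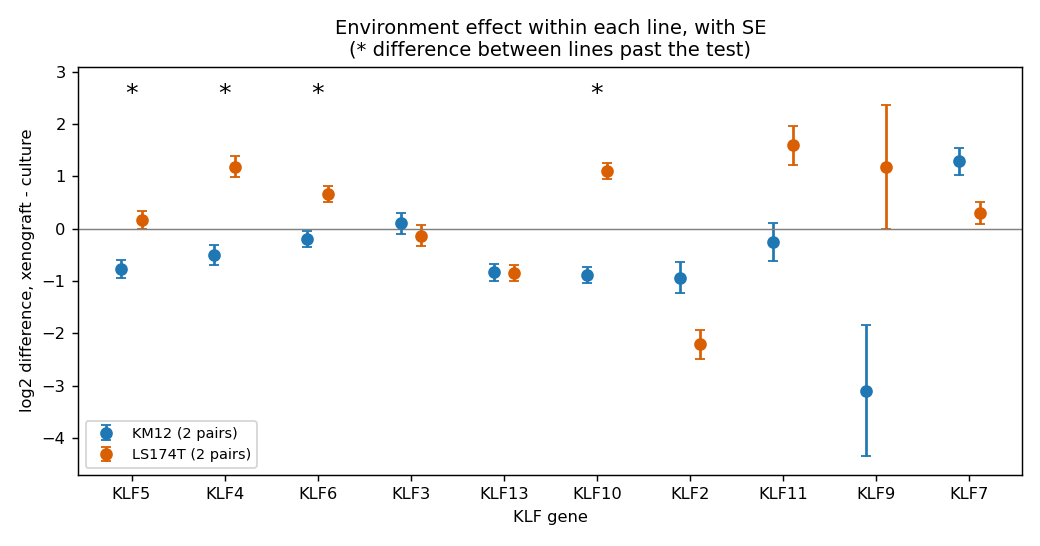
Log2 difference, xenograft minus culture, of the 10 KLF genes in KM12 and LS174T (2 pairs each), with SE from edgeR; an asterisk marks a difference between lines with adjusted p below 0.05. KLF13 is near -0.84 in both lines, while KLF10 lies at -0.87 in KM12 and 1.11 in LS174T.

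Between the lines, KLF7, KLF2 and KLF6 were higher in LS174T. KLF7, first described as ubiquitous and known for roles in neurons, ran from 23.1 to 38.9 CPM in LS174T and from 0.967 to 3.21 in KM12, where it rested on 33 to 56 counts a library. KLF2 ran from 9.11 to 55.9 against 2.57 to 6.74, and KLF6 from 158 to 424 against 78.2 to 122. The groups of 4 did not overlap for these 3 members, as for 15.2% of all genes in this direction. Set pair by pair, with parental beside Dox (+) and knockout beside Dox (-), the log2 differences were 4.16 ± 0.36, 2.18 ± 0.35 and 1.27 ± 0.22, with edgeR adjusted p-values of 0.00153, 0.00834 and 0.0114. These were the 3 of 10 members called, beside 31.5% of all genes, 16.7% higher and 14.8% lower in LS174T, and they passed under all 10 alternatives run. KLF13 was also higher in LS174T in the 4 pairs, as were 25.6% of all genes, by 0.12 ± 0.11 (adjusted p = 0.42). KLF4, KLF5 and KLF10 were nearer the other side (-0.56 ± 0.39, -0.42 ± 0.26 and -0.50 ± 0.45), and none passed.

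Of the other KLF genes, 4 passed the filter. KLF8 had 0 to 2 counts in each KM12 library and 37 to 73 in each LS174T library (edgeR adjusted p = 0.00385). KLF15 was higher in LS174T (2.73 ± 0.44, adjusted p = 0.00857), and KLF12 was lower (-2.42 ± 0.50, adjusted p = 0.0179). That made 2 of 4 called higher and 1 lower in LS174T, beside 16.7% and 14.8% of all genes. KLF16 held between 55.8 and 69.1 CPM in all 8 libraries. KLF1, KLF14 and KLF17 had at most 13 counts in any library. None of the 4 tested passed for GNAS, or for the environment over all 4 pairs. Within lines, KLF12 was higher in LS174T xenografts (2.13 ± 0.43, adjusted p = 0.005) and KLF15 lower in KM12 xenografts (-1.71 ± 0.51, adjusted p = 0.0367). Of all genes 23.4% were called higher in LS174T xenografts and 15.5% lower in KM12 xenografts.

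Of the SP genes, relatives that bind the same GC boxes, 7 of 9 passed the filter. SP8 (4.43 ± 0.26, adjusted p = 5.29e-04) and SP6 (2.60 ± 0.35, adjusted p = 0.00537) were higher in LS174T, 2 of 7 beside 16.7% of all genes. SP2 (-0.77 ± 0.13, adjusted p = 0.0161) and SP1 (-0.74 ± 0.19, adjusted p = 0.041) were lower in xenografts, 2 of 7 beside 13.5% of all genes. SP3 did not pass for the environment over all 4 pairs (0.49 ± 0.19, adjusted p = 0.102). Within LS174T, SP3 (0.82 ± 0.17, adjusted p = 0.00581), SP4 (1.18 ± 0.24, adjusted p = 0.00518) and SP8 (1.11 ± 0.27, adjusted p = 0.0124) were higher in xenografts and SP2 was lower (-0.68 ± 0.17, adjusted p = 0.0127). Of all genes 23.4% were called higher and 22.5% lower within LS174T. Within KM12, SP5 was higher (1.71 ± 0.49, adjusted p = 0.0329), and SP1, SP2 and SP6 were lower (-1.08 ± 0.17, -0.86 ± 0.17 and -1.35 ± 0.38, adjusted p = 0.00384, 0.00892 and 0.0313). The shares of all genes within KM12 were 14.3% higher and 15.5% lower. The environment effects of SP4 and SP5 differed between the lines, by 1.48 ± 0.33 (adjusted p = 0.0249) and -2.95 ± 0.70 (adjusted p = 0.0306), as did those of 13.7% of all genes. None of the 7 passed for GNAS.

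Among 14 cofactors that KLF proteins bind, 2 were higher and 5 lower in xenografts, beside 12.6% and 13.5% of all genes, with a median log2 difference of -0.23 beside 0.02 for all genes. The corepressor NCOR1 was at -1.12 ± 0.12 (adjusted p = 0.00968) and the acetyltransferases EP300 and CREBBP at -0.99 ± 0.15 (adjusted p = 0.013) and -0.96 ± 0.13 (adjusted p = 0.0119). EP300, CREBBP and the deacetylase HDAC1 were lower in LS174T than in KM12 (-0.76 ± 0.14, -0.67 ± 0.13 and -0.66 ± 0.12), among 1 higher and 4 lower of the 14, beside 16.7% and 14.8% of all genes. Of 9 ubiquitin ligases and deubiquitinases that act on KLF proteins, FBXO32 (1.39 ± 0.33) and SIAH1 (1.52 ± 0.33) were higher in xenografts and BTRC (-0.86 ± 0.17) lower, 2 and 1 of 9 beside 12.6% and 13.5% of all genes. WWP1, a ligase of KLF5, did not pass for the lines (0.60 ± 0.18, adjusted p = 0.054).

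Genes that have been attributed to KLF4 and KLF5 did not pass for GNAS either, 0 of 10 and 0 of 9 tested. CDKN1A, a cell-cycle inhibitor that KLF4 activates, was at 33.8 CPM in KM12 parental against 49.6 in knockout culture, 19.9 against 40.6 in the KM12 xenografts, 946 with Dox against 1246 without in LS174T culture and 104 against 148 in LS174T xenografts. It was lower in the parental or Dox (+) library of every pair, as KLF4 was, with a log2 difference of -0.61 ± 0.12 (unadjusted p = 0.00094, adjusted p = 0.776). In both LS174T xenografts CDKN1A was below culture while KLF4 was above it (Dox (-) 225 against 75.3 CPM, Dox (+) 111 against 63.7). In both KM12 xenografts CDKN1A and KLF4 were below culture. Between lines KLF4 was at -0.56 ± 0.39 (edgeR adjusted p = 0.319), not the direction of CDKN1A. KLF4 activity was not tested. KRT19 was at -0.73 ± 0.17 (adjusted p = 0.776). The medians of the lists were -0.28 for KLF4 and 0.11 for KLF5, beside 0.01 for all genes. Of the KLF4 list 3 genes were above 0 and 7 below, and of the KLF5 list 5 above and 4 below. The lists were not split by direction of regulation, so a median is no measure of KLF4 or KLF5 activity. Between lines, CDKN1A (3.44 ± 0.64), CCND1 (0.95 ± 0.27) and KRT4 were called higher in LS174T, KRT4 on 0 or 1 count in each KM12 library and 1 to 128 in LS174T. On the KLF5 list FGFBP1 (3.64 ± 0.40), LGR5 (2.13 ± 0.32) and CCND1 were higher in LS174T, so that 3 of 10 and 3 of 9 were called higher beside 16.7% of all genes, and CDK1 did not pass (-0.48 ± 0.16, adjusted p = 0.0716).

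KLF10 and KLF11 are early TGF-beta response genes. Of 12 other genes of that pathway 5 were higher and 2 lower in LS174T, beside 16.7% and 14.8% of all genes, and 2 were lower in xenografts, beside 13.5%. The inhibitory SMAD7 (3.53 ± 0.32), the signal transducer SMAD2 (1.38 ± 0.13) and the corepressor TGIF1 (0.87 ± 0.15) were among those higher in LS174T. The 2 lower there were TGFB1 (-5.49 ± 1.19, edgeR adjusted p = 0.0206) and TGFBR2 (-1.12 ± 0.20, adjusted p = 0.0124). The 2 lower in xenografts were TGFBR2 (-0.89 ± 0.16, adjusted p = 0.0186) and SKI (-0.56 ± 0.15, adjusted p = 0.0443). For the environment, SMAD7 (1.08 ± 0.32, adjusted p = 0.0569) and TGIF1 (-0.44 ± 0.14, adjusted p = 0.0603) did not pass.

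KLF2 is transcribed through the kinase ERK5 and MEF2 factors. Of 8 listed genes of that route 6 were tested, and 3 of these were lower in xenografts, beside 13.5% of all genes. They were MEF2C (-2.05 ± 0.53, adjusted p = 0.0396), MEF2D (-0.90 ± 0.20, adjusted p = 0.0286) and the KLF2 target NOS3 (-2.01 ± 0.50, adjusted p = 0.0363). The ERK5 gene MAPK7 (0.03 ± 0.14), MAP2K5 (-0.16 ± 0.22) and MEF2A (-0.33 ± 0.15) did not pass (edgeR adjusted p = 0.893, 0.608 and 0.145). MEF2C and NOS3 were also higher in LS174T (5.12 ± 0.58 and 5.04 ± 0.54), with MEF2C on 2 to 7 counts in each KM12 library, and MEF2A was lower there (-0.54 ± 0.14). MEF2C ran from 31 to 430 counts in LS174T.

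KLF9 responds to glucocorticoid, thyroid hormone and the clock. Of 9 tested genes of those routes 2 were higher and 2 lower in LS174T, beside 16.7% and 14.8% of all genes, namely the thyroid hormone receptors THRA (2.07 ± 0.38) and THRB (-4.65 ± 0.46), the clock repressor NR1D1 (-1.38 ± 0.24) and the glucocorticoid target TSC22D3 (3.40 ± 0.77). THRB was the 1 gene lower in xenografts (-2.08 ± 0.43, adjusted p = 0.0238), beside 13.5% of all genes. KLF4, KLF6 and KLF10 can behave as immediate early genes. Of 15 such genes 1 was higher in xenografts, NR4A1 (1.41 ± 0.20, adjusted p = 0.0122), and 1 lower, FOSB (-2.41 ± 0.43, adjusted p = 0.0181), beside 12.6% and 13.5% of all genes. In LS174T 2 were higher and 3 lower, beside 16.7% and 14.8%. EGR3, on 0 to 12 counts in each LS174T library and 95 to 435 in KM12, was among the lower. ATF3 was at a GNAS log2 difference of -0.46 ± 0.10 (unadjusted p = 0.00224) and did not pass (adjusted p = 0.776).

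The pattern of each member over the 8 libraries was set beside those of the 11433 genes averaging 5 CPM or more, by Pearson's r of log2 CPM. All points share the same 8 libraries, 4 from each line and 4 from each environment, so r is a description. KLF13 was closest to LRCH1 (r = 0.998) and PLCD3 (0.996), KLF7 to PRPF4B (0.996) and VPS35L (0.995), and KLF2 to THTPA (0.993) and GPC1 (0.993). The genes closest to KLF6 were PLEKHG3 (0.989) and PDLIM1 (0.986), to KLF5 PRDM16 (0.986) and THOC2 (0.972), and to KLF3 FUT4 (0.979) and FPGS (0.956). KLF9 was closest to MPP3 (0.978) and CACTIN (0.978), KLF11 to ZXDB (0.977) and PAQR5 (0.974), KLF4 to CHD2 (0.973) and SERINC1 (0.964), and KLF10 to HDAC3 (0.97) and ADD3 (0.964). Among the members themselves the highest r was between KLF4 and KLF10 (0.89), followed by KLF6 and KLF7 (0.84) and KLF5 and KLF9 (0.81), and the lowest between KLF2 and KLF4 (-0.70). KLF4 and KLF6, the members below 1 in all 4 GNAS pairs by more than counting error, had an r of 0.07 over the 8 libraries.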

How the data were processed

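RNA sequencing libraries were aligned with STAR 2.7.2b and counted with HTSeq 0.11.0, per the submitters' processing notes, which name the builds hg38 and GRCm39. The authors deposited 1 table of raw read counts for 60483 Ensembl genes in 8 libraries, of 15924846 to 37735085 counts each, and symbols were matched through the GENCODE v29 annotation. Genes at 1 CPM or more in at least 2 libraries (16070) were tested with edgeR 4.0.16 (R 4.3.3), using TMM factors, a robust quasi-likelihood fit and Benjamini-Hochberg adjustment at 0.05. Each effect was fitted over 4 pairs with the pair as a block, leaving 3 residual degrees of freedom, and effects within lines or environments with 2. Fits of 2 pairs alone, run as alternatives, left 1. Dox (+) was set beside parental from the labels alone. SE is the size of the log2 difference over the square root of F. Ratios of single libraries carry 95% exact binomial counting intervals, which cover counting error only. The p-values measure how far an effect disagrees between pairs that differ in line, environment or GNAS state. Without replicates, that disagreement cannot be told apart from variation between cultures, tumors or library preparations. Nothing says that libraries come from separate cultures or animals, so part of the spread may be technical.

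Alternatives were DESeq2 1.42.0, limma-voom (limma 3.58.1), other size factors, no filter, a fit without the pair block, and leaving out pairs. Genes named are GNAS, the 10 members, the tested KLF and SP genes, up to 4 genes with the smallest p from each list, and the 2 genes most like each member. Some cell type markers, overlapping transcripts, TGFB1, TGFBR2, SKI, MAPK7 and MAP2K5 are named outside this rule. The members and lists were chosen with earlier results of these data known, and the promoters printed were chosen after the values were seen. One gene that this rule names is not reported here.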

Additional observations from a re-analysis of the deposited data

Results flagged for a closer look

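For 4 of the KLF genes the difference between xenograft and culture was not the same in LS174T and KM12, by an edgeR interaction test. The LS174T effect minus the KM12 effect was 1.98 (log2) for KLF10, 1.69 for KLF4, 0.92 for KLF5 and 0.87 for KLF6, with adjusted p-values of 0.00171, 0.00849, 0.0406 and 0.0348. In both LS174T pairs KLF10, KLF4 and KLF6 were above culture, and in both KM12 pairs they were below it, except KLF6 in the knockout pair when scaled by total counts (1.15 times). KLF5 was above culture in 1 of the 2 LS174T pairs, and in both when scaled by total counts (1.62 and 1.08 times). Each line has 2 pairs, and no difference passed without the LS174T Dox (-) pair or without the Dox (+) pair. What sets the lines apart was not tested.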

How the results depend on the processing

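Depth limited KLF7 in KM12 and KLF9 in the KM12 knockout xenograft (28 counts), and 1 library a group limits every test. The number of genes past the GNAS test, 0 as reported, was 281 without the filter, 53 with DESeq2, 194 from culture pairs and 1 from xenograft pairs, and 0 to 1 with 1 pair left out. The environment count of 4189 became 8402 from LS174T pairs and 11 to 2613 with 1 pair left out, lowest without LS174T Dox (+) and 596 without Dox (-). The line count of 5069 became 2726 to 4152. The count of genes whose environment effect differed between lines, 2198, became 17 to 3006, and the alternatives for that result were added after seeing the data. With total counts, the members above 1 went from 1 to 2 for LS174T xenograft Dox (+) over Dox (-) and from 5 to 8 for LS174T Dox (+) xenograft over culture. By longest transcript KLF3 ranked 5 and KLF13 ranked 4.

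Signs turned only for effects that had not passed as reported. For GNAS, KLF2 was -0.19 with limma-voom, and from culture pairs KLF2 was -0.34, KLF5 0.07 and KLF11 0.05. With 1 pair left out the GNAS difference ran from -0.13 to 0.35 for KLF2, -0.13 to 0.12 for KLF5, -0.34 to 0.10 for KLF7 and -1.09 to 0.45 for KLF9. For the environment, KLF3 was 0.24 with total counts. From KM12 pairs KLF3 was 0.15, KLF4 -0.45, KLF6 -0.15, KLF10 -0.83 and KLF11 -0.21, and from LS174T pairs KLF5 was 0.19 and KLF9 1.22. With 1 pair left out the environment difference ran from -0.19 to 0.09 for KLF3, -0.06 to 0.66 for KLF4, -2.07 to 0.14 for KLF9 and -0.26 to 0.51 for KLF10. For the line it ran from -0.04 to 0.18 for KLF3 and -1.75 to 0.16 for KLF9, which passed at the lower value (edgeR adjusted p = 0.0495, without the xenograft knockout and Dox (-) pair). For the environment difference between lines it ran from -0.66 to 0.17 for KLF3 and -0.22 to 0.18 for KLF13. The causes were not tested.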
